A study of Mus musculus with 2 samples.

Results

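The genes described here are the core engine of the cell division cycle: 36 genes for cyclins, cyclin-dependent kinases (CDKs), CDK inhibitors, CDC25 phosphatases, pocket proteins and E2F transcription factors. They were chosen by symbol from a list, and all 36 were found among the 14398 genes of the deposited table. RNA was sequenced from the mouse embryonic stem cell line 46C, which has a GFP reporter in Sox1 and was kept in serum medium with leukemia inhibitory factor at passages 21 to 24. The control culture was transfected with the empty vector PB, and the other with PB-ID2, for overexpression of ID2. Each group had 1 library, so differences are given without error or test, and "higher" and "lower" compare the ID2 library with the control library. Whether each culture was a pool or a clone is not given in the sources used here.

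CDKs drive the cycle only when bound by a cyclin. D-type cyclins with CDK4 and CDK6, and E-type cyclins with CDK2, phosphorylate the pocket proteins RB1, RBL1 (p107) and RBL2 (p130), which otherwise hold E2F factors in check, and so release the genes of S phase. A-type and B-type cyclins with CDK1 then carry the cell through G2 into mitosis. Mouse embryonic stem cells are known for a short G1 phase and for pocket proteins that are kept phosphorylated through much of the cycle. ID2, which lacks the DNA-binding part of other helix-loop-helix proteins, is known to bind pocket proteins as well as E proteins.

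Values are the authors' normalized values of each gene in each library, given with the control value first. They are not scaled to gene length, and the sequencing depth behind them is unknown. Ratios are log2 of (ID2 value + 1) over (control value + 1). Genes were counted when the mean of both libraries was at least 50, a floor that 12679 genes and 35 of the 36 members passed, and a gene was called apart at 1.5-fold or more. As a scale for each ratio, the 5th to 95th percentile of the ratios of the 500 genes nearest in mean level is given as that gene's neighbour range, a description and not a test. Such a range leaves 10% of the neighbours outside it, and 4 of the 36 members (11.1%) lay outside theirs. In bulk RNA, fewer cells in a phase and less RNA per cell cannot be told apart.

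Id2 itself stood at 324 (control) and 26225 (ID2), in the direction of the labels. All 10 listed markers of pluripotent stem cells were present, with summed values of 114620 and 139978. Of these, 9 were higher (median 0.28), with Zfp42 1.80-fold and Klf4 1.41-fold higher. Of 12 fibroblast and feeder markers, 7 were among the genes of the table, with summed values of 2418 and 1698. The 5 above the floor had a median of −0.38 (3 lower and 2 higher). Col1a1 was 2.44-fold, Thy1 1.59-fold and Pdgfrb 1.30-fold lower, while Loxl1 was 1.37-fold higher and Pdgfra level (0.03). The 2 called lower at 1.5-fold made up 40% of the 5, beside 6.59% of all genes. Of 12 markers of differentiated lineages 6 were in the table, with sums of 1181 and 1360. The 4 above the floor had a median of −0.23 and went both ways, with Sox1, the reporter locus, 2.02-fold higher and Gata4 (1.90-fold) and Nes (1.83-fold) lower. The part of these markers in the differences below was not tested.

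Most core cell cycle genes stood at close to the same level in both libraries. Of the 35 members above the floor, 16 had a higher and 19 a lower value with ID2, where all genes above the floor divided into 49.8% higher and 50.2% lower. Their median ratio was −0.02 (all genes −0.0023), and 25 of the 35 lay within 0.3 of 0 (71.4%, beside 62.7% of all genes). Both libraries share 1 distribution of values, which largely sets the near-even split and the median near 0 of all genes. A shift common to all genes would therefore not show. E2f3 and Ccnd2 were at least 1.5-fold higher, 2 of 35 (5.71%), beside 8.0% of all genes. Rbl2 was the 1 member at least 1.5-fold lower (2.86%), beside 6.59% of all genes. These shares do not exceed those of all genes, a background not matched for level. Of the members, 24 had a mean of at least 1000. Of the neighbours of these, 1.8% (Cdk1) to 6.4% (Cdk7) were at least 1.5-fold apart in either direction. E2f3, Ccnd2 and Rbl2 lay at lower levels, where 12%, 35% and 9.2% of the neighbours were apart. Whether the members as a set differed from genes of their own level was not tested. At 2-fold, E2f3 alone was called (2.86%, beside 2.53% of all genes higher), and no member was called lower (beside 1.86%).

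**Figure D1:**
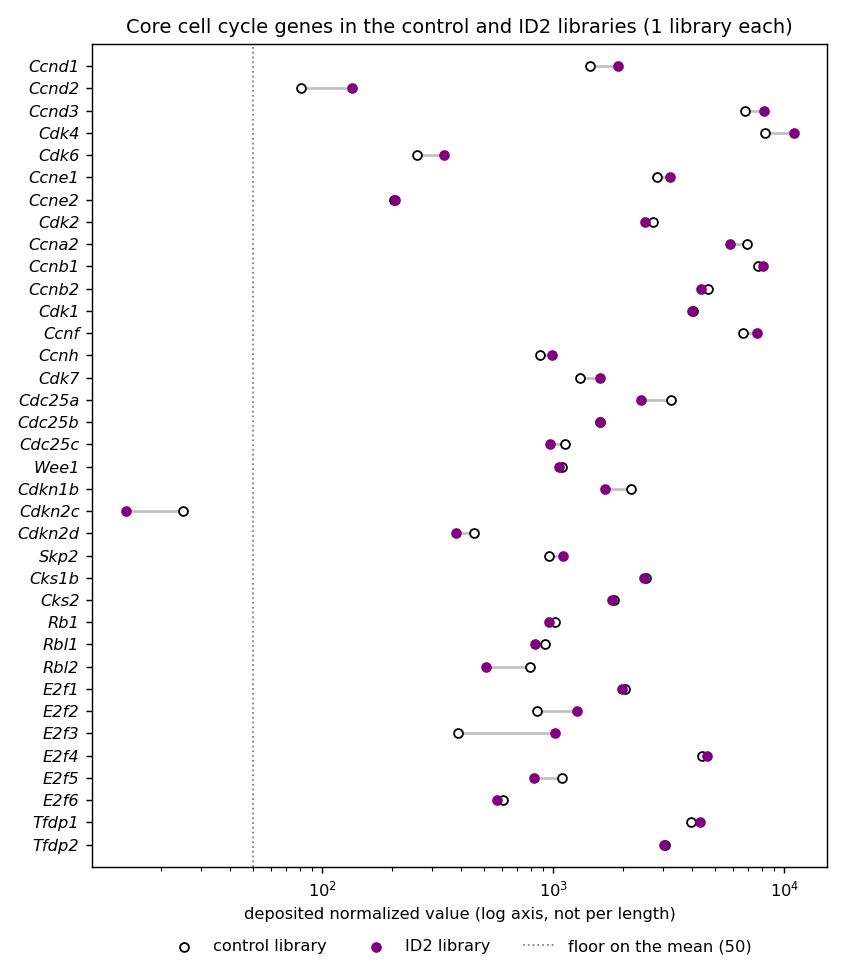
Deposited normalized value of each of the 36 members (horizontal log axis, not per length) in the control library (open points) and the ID2 library (filled points), 1 library each. E2f3 has the longest upward line, from 386 to 1015, and Cdkn2c is the 1 gene under the floor of 50.

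The D-type cyclins and their kinases stood higher in the ID2 library, all 5 of them, with a median ratio of 0.41. Ccnd1, the cyclin that couples growth factor signals to G1, stood at 1437 and 1915 (0.41, 1.33-fold). Ccnd3 stood at 6742 and 8137 (0.27). Ccnd2, the third D-type cyclin, stood at 80.6 and 134.7 (0.73, 1.66-fold). Although Ccnd2 was called at 1.5-fold, it lay inside its neighbour range of −1.07 to 1.19, since genes at its level spread widely. Cdk4, a kinase partner of these cyclins, stood at 8237 and 11022 (0.42, 1.34-fold), close to the upper end of its neighbour range at 0.46. Cdk6, its paralog, stood at 258 and 336 (0.38). Thus each of the 5 genes was between 1.21-fold and 1.66-fold higher, and none left its neighbour range.

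Cyclin E and CDK2, which act after the D-type cyclins at the entry into S phase, were close to level. Ccne1 stood at 2808 and 3194 (0.19). Ccne2 stood at 205 and 207 (0.01), which is the same whole number of value steps, 206, in both libraries, so that its direction was set by the size factors alone. Cdk2 stood at 2709 and 2504 (−0.11). All 3 lay well inside their neighbour ranges.

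Genes of S phase, G2 and mitosis showed a narrow spread. The 9 members of these phases lay between −0.24 and 0.20, with a median of −0.02, and none was called. Ccna2, the cyclin of S phase and G2, had the largest ratio of them in size, at 6869 and 5818 (−0.24, 1.18-fold lower). The mitotic cyclins Ccnb1 (7732 and 8069, 0.06) and Ccnb2 (4681 and 4361, −0.10) went opposite ways. Cdk1, the kinase that triggers mitosis, stood at 4034 and 3987 (−0.02). Ccnf, an F-box cyclin that targets proteins for degradation and activates no CDK, stood at 6619 and 7592 (0.20).

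The CDK-activating kinase, which phosphorylates the activation loop of other CDKs and also belongs to the transcription factor TFIIH, was slightly higher in both of its members here. Its kinase Cdk7 stood at 1308 and 1594 (0.29), and its cyclin Ccnh at 872 and 985 (0.18). Mnat1, which encodes another subunit of this kinase and is no member, went the other way, at 844 and 783 (−0.11).

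The phosphatases that switch CDKs on, and WEE1, which switches them off, were all lower or level. Cdc25a, which acts at the entry into S phase as well as later, stood at 3220 and 2405 (−0.42, 1.34-fold lower). Its ratio lay just below its neighbour range of −0.40 to 0.49 without reaching 1.5-fold. The mitotic phosphatases Cdc25b (1598 and 1590, −0.0077) and Cdc25c (1125 and 971, −0.21) lay inside their ranges. Wee1 stood at 1090 and 1059 (−0.04).

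All 3 CDK inhibitors among the members were lower. Cdkn1b, which encodes p27, an inhibitor of cyclin E and cyclin A complexes, stood at 2165 and 1668 (−0.38, 1.30-fold lower), near the lower end of its neighbour range at −0.44. Cdkn2d, which encodes the CDK4 and CDK6 inhibitor p19, stood at 456 and 381 (−0.26). Cdkn2c, which encodes the related inhibitor p18, stood at 24.9 and 14.1 (−0.78), under the floor. Among its neighbours 71.2% were at least 1.5-fold apart, so a difference of this size was common at that level. Skp2, the F-box protein that marks p27 for degradation, stood at 955 and 1106 (0.21). Its cofactor Cks1b (2518 and 2471, −0.03) and the related Cks2 (1825 and 1805, −0.02) were level.

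The pocket proteins were lower in all 3 members, though only Rbl2 passed 1.5-fold. Rbl2, which with E2F4 represses cell cycle genes in resting cells, stood at 795 and 512 (−0.63, 1.55-fold lower), just below its neighbour range of −0.58 to 0.54. Rbl1 stood at 921 and 832 (−0.15). Rb1, the retinoblastoma gene, stood at 1015 and 956 (−0.09). The ratios of Rb1 and Rbl1 lay well inside the ranges of their neighbours.

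The activator E2Fs, which switch on genes of S phase, differed among themselves. E2f3 stood at 386 and 1015 (1.39, 2.62-fold), the largest ratio of all members in size. It exceeded its neighbour range of −0.61 to 0.62, and 99.6% of its 500 neighbours had a lower ratio. E2f2 stood at 850 and 1261 (0.57, 1.48-fold), above its neighbour range of −0.46 to 0.51 and just under 1.5-fold. E2f1 was level, at 2043 and 1988 (−0.04). Of the E2Fs that mostly repress, E2f5 was lower (1095 and 829, −0.40, 1.32-fold lower), while E2f4 (4396 and 4638, 0.08) and E2f6 (603 and 573, −0.07) were level. The dimerization partners Tfdp1 (3945 and 4329, 0.13) and Tfdp2 (3059 and 3023, −0.02) were also close to level.

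**Figure D2:**
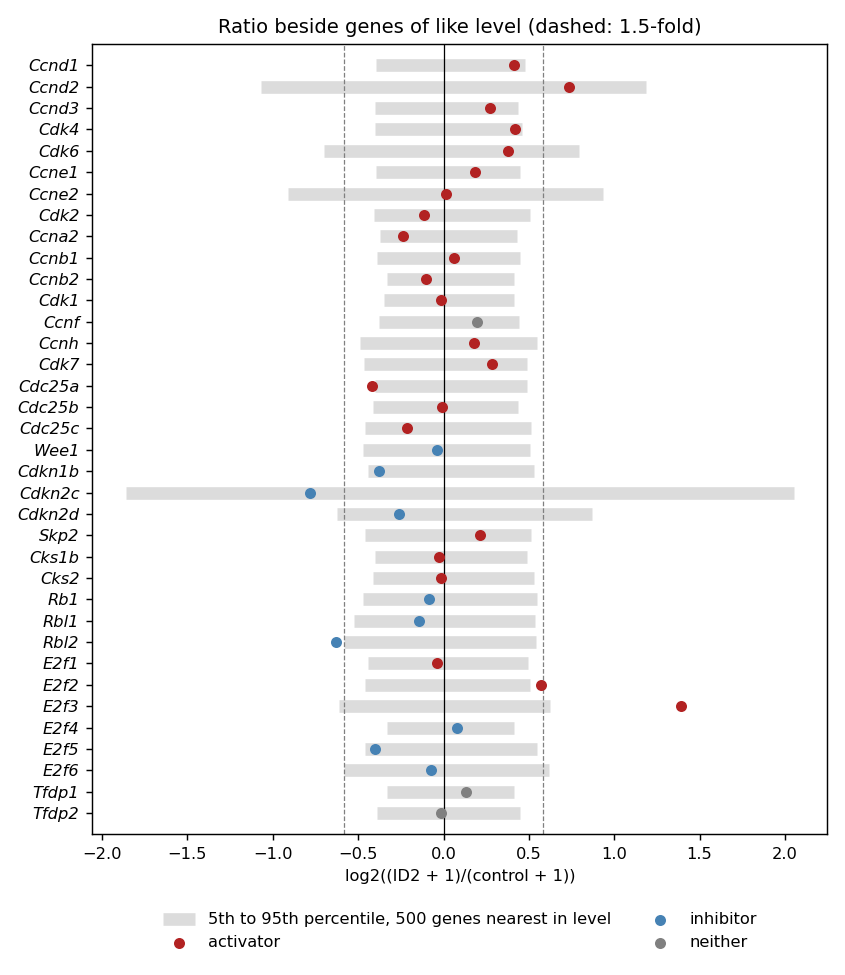
Log2 ratio of ID2 to control (horizontal axis) of each member as a point, over a grey bar for the 5th to 95th percentile of the 500 genes nearest in level; dashed lines mark 1.5-fold. Of 36 points, 32 lie inside their bars, E2f3 and E2f2 lie above and Rbl2 and Cdc25a below; the 4 outside make up 11.1%, where such a bar leaves 10% of the neighbours outside.

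Since E2F factors act on their own genes among others, the promoters of the members were searched for E2F sites. RefSeq promoters (GRCm38.p6, from 250 bases before to 50 after each start) were at hand for 26 members, with 33 starts in all. The letters searched on both strands were TTTCCCGC, TTTCGCGC, TTTGCCGC and TTTGGCGC. A match stood in 8 of the 33 member promoters (24.2%), beside 2.26% of all 32851 promoters. The 8 include 1 site of Tfdp1 that lies in the overlapping windows of both its starts. The same promoters were also searched for CHR elements and CCAAT boxes. CHR letters stood in 27.3% of member promoters, beside 19.2% of all promoters, and a CCAAT box in 51.5%, beside 37.4%. Below, a match means an E2F match. The 150 bases before the start are printed for E2f3, whose 2 starts differ in having a match. They are also printed for Cdc25a, Cdk2 and Rbl1, which have a match and ratios below 0. Cdk1, with a match and a ratio of −0.02, is not printed. Each printed window is written 5′ to 3′ on the strand of the gene and ends 1 base before the start. The E2F match is in capitals.
E2f3, upstream start, chr13:29986064-29986213, minus strand: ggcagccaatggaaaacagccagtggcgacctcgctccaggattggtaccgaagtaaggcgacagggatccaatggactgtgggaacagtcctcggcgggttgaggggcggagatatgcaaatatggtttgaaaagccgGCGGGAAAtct
E2f3, downstream start, chr13:29984392-29984541, minus strand: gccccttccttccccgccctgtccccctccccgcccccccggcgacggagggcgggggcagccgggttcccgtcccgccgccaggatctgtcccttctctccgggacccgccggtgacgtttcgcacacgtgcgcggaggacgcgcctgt
Cdc25a, chr9:109875429-109875578, plus strand: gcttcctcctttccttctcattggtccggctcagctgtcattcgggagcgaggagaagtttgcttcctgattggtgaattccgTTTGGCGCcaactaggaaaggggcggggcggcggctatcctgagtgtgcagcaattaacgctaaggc
Cdk2, chr10:128705052-128705201, minus strand: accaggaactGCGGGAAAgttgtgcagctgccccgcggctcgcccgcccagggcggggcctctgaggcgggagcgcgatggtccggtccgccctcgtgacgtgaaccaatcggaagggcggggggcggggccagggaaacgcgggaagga
Rbl1, chr2:157204535-157204684, minus strand: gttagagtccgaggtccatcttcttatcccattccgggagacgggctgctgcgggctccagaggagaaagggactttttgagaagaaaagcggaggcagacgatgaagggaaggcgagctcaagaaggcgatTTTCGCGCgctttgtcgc

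The upstream E2f3 window holds a match, GCGGGAAA, starting 11 bases before the start of transcription, and the downstream window holds none of these letters. The table gives 1 value for E2f3 over both starts, so which start the higher value came from was not measured. The Cdk2 window holds the same 8 letters, while Cdc25a has TTTGGCGC and Rbl1 TTTCGCGC. The 7 genes with a match in any of their promoters went both ways, 3 higher (E2f3, E2f2 and Tfdp1) and 4 lower (Cdc25a, Rbl1, Cdk2 and Cdk1), with a median ratio of −0.02. The 18 genes without a match that were above the floor had a median of −0.01, with 8 higher and 10 lower. A match describes letters in the window and is not a site shown to be bound.

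By role, the inhibitors of the cycle leaned lower and the activators were spread. Of 9 inhibitors above the floor (2 CDK inhibitors, the 3 pocket genes, Wee1 and E2f4, E2f5 and E2f6), 8 were lower, with a median of −0.15 and E2f4 as the exception. Of 23 activators, 13 stood higher and 10 lower (median 0.06). By phase, the 6 genes of G1 had a median of 0.40 (5 higher), the 18 genes of the passage from G1 to S a median of −0.03 (7 higher), and the 9 of S, G2 and mitosis a median of −0.02 (2 higher). The G1 median came from the D-type cyclins and their kinases, since the 1 other gene of that phase above the floor, Cdkn2d, was lower. Most of these ratios were under 1.5-fold and lay inside the neighbour ranges, and roles and phases were assigned with earlier results of these data known.

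**Figure D3:**
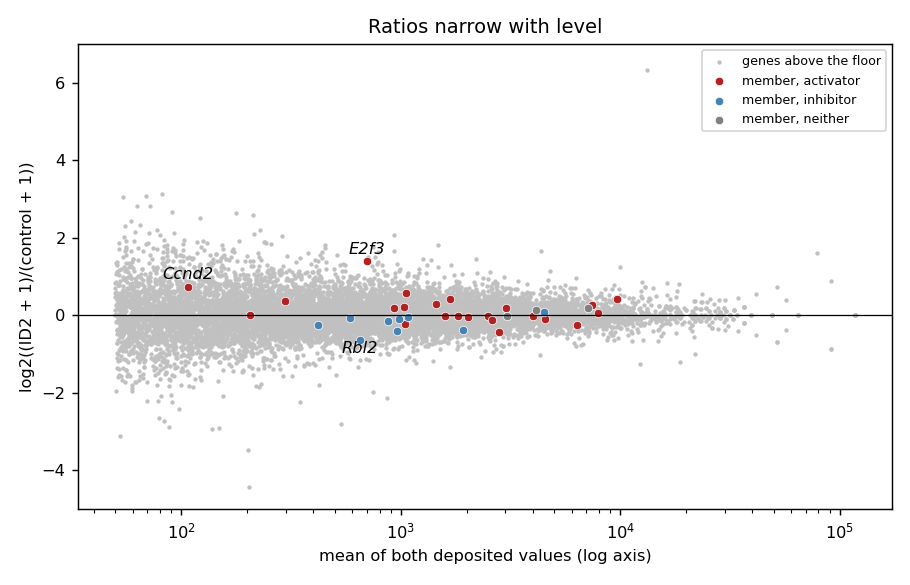
Log2 ratio of ID2 to control (vertical axis) against the mean of both deposited values (horizontal log axis) for all 12679 genes above the floor in grey, with the 35 members above the floor coloured by role. Ccnd2 stands among the widely spread genes of low level, while E2f3 stands at the upper edge of genes at its level.

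Scaled per kilobase of annotated exon, 1 paralog carried most of the D-type cyclins, of the E-type cyclins and of the CDK4 and CDK6 pair in both libraries. Among D-type cyclins, Ccnd3 stood at 2755 per kilobase in the control library, Ccnd1 at 384 and Ccnd2 at 12.0, an order that was the same in the ID2 library (3325, 512 and 20.1). Ccnd3 made up 87.4% of this family in control RNA and 86.2% with ID2, so the higher Ccnd2 value left the makeup nearly as it was. Cdk4 made up 99.4% and 99.5% of the sum with Cdk6, and Ccne1 95.6% and 96.1% of the sum with Ccne2.

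The makeup of the activator E2Fs differed more between the libraries. E2f1 led in both, at 648 and 630 per kilobase. E2f2 stood at 179 and 266 per kilobase, and E2f3 at 72.0 and 189. The share of E2f3 in the family was therefore 8.01% in control RNA and 17.4% with ID2, and that of E2f1 was 72.0% and 58.0%. Among pocket genes, which stood within a narrow span per kilobase, Rbl2 made up 28.4% in control RNA and 21.7% with ID2, and Rb1 38.3% and 42.7%. With the longest coding transcript as the length, the E2f3 shares were 7.60% and 16.8%. These shares have no replicate spread.

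Other genes of the same pathway, from lists that share no gene with the members, were mostly level. Of 28 genes that E2F factors are known to activate for S phase, 17 stood higher and 11 lower (median 0.04). None of the 28 was called at 1.5-fold. Their extremes were Tyms, thymidylate synthase (1061 and 1401, 0.40), and Pold1, the catalytic subunit of DNA polymerase delta (7720 and 6208, −0.31). The higher value of E2f3 thus stood beside S phase genes whose median was close to that of all genes.

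Of 24 mitotic genes of the kind that carry CHR promoter elements, 11 stood higher and 13 lower (median −0.03). Cenpf (3358 and 5390, 0.68) and Cenpe (1682 and 2530, 0.59), both of the outer kinetochore, were the 2 called higher (8.33%, close to the 8.0% of all genes). The 12 checkpoint and mitotic entry genes had a median of 0.11 (9 higher), with Aurka (2530 and 3310, 0.39) and its activator Bora (2235 and 2914, 0.38) the highest. A list around the MuvB core had a median of 0.13 (7 of 10 higher). It holds the repressive E2f7 and E2f8, MuvB subunits that form the silencing DREAM complex, the kinase Dyrk1a that promotes DREAM assembly, and the activators Mybl2 and Foxm1 that bind MuvB later in the cycle. E2f8, an atypical E2F that represses, stood at 742 and 1104 (0.57). Lin52, of the MuvB core, stood at 742 and 469 (−0.66) and was the 1 gene of that list called lower (10%, beside 6.59% of all genes).

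Among CDK inhibitors that are no members, Cdkn1a and Cdkn1c were at least 2-fold lower. Cdkn1a, which encodes p21, stood at 5806 and 2860 (2.03-fold lower), and Cdkn1c, which encodes p57, at 453 and 218 (2.07-fold lower). The 4 genes of this list above the floor had a median of −0.73, with 3 lower and 1 higher. At 1.5-fold, 2 of the 4 were called lower (50%, beside 6.59% of all genes). Of all genes, 1.86% were at least 2-fold lower. No neighbour range is given for the genes of this list. Cdkn2b, named after its values were seen, stood at 59.7 and 30.1, under the floor.

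**Figure D4:**
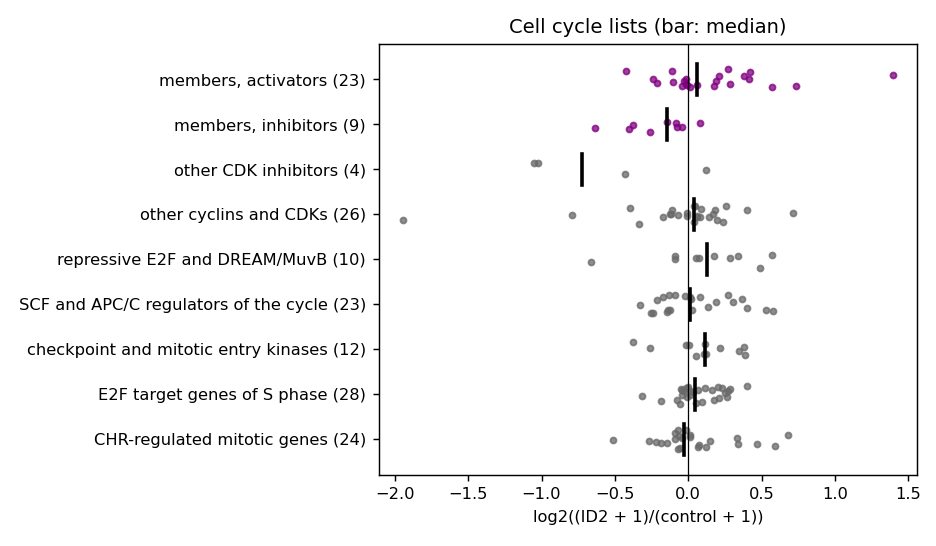
Log2 ratio of ID2 to control (horizontal axis) for each gene above the floor, with the median as a bar, for the members by role and for the other cell cycle lists; the number of genes is in brackets. The medians lie between −0.15 and 0.13, except that of the other CDK inhibitors at −0.73, a list of 4 genes.

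Exon structure moved with the ratios of all genes in these libraries, and less regularly with those of the members. Of 1701 coding genes above the floor with at least 80% of the longest coding transcript in 1 exon, 18.0% passed 1.5-fold upward and 5.88% downward. Of 3943 coding genes with under 40% in 1 exon, 3.70% were higher and 6.21% lower. Ccnd2 (84.1%), Cdk6 (89.9%) and Skp2 (80.6%) belonged to the first class, and all 3 were higher. E2f3 had 70.5% and E2f2 69.7% of the transcript in 1 exon, in a class (60 to 80%) where 8.84% of 2657 genes passed 1.5-fold upward and 4.97% downward. The class under 40% held 8 members with a median of −0.12. These were Wee1, E2f5, all 3 pocket genes and the activators Ccne1 (0.19), Ccnb2 (−0.10) and Cdc25c (−0.21). The members' medians did not follow the classes in order, at 0.01 for the 17 members from 40 to 60%, −0.02 for the 7 members from 60 to 80% and 0.38 for the 3 members above, while those of all coding genes were −0.02, −0.01, 0.01 and 0.10 from the lowest class to the highest. Cdkn1b (78.2%) and Cdkn2d (64.9%) were lower despite a large exon, and Cdk4 (48.3%) and Ccnd3 (50.9%) higher without one. The part of exon structure in the difference between activators and inhibitors was not tested.

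**Figure D5:**
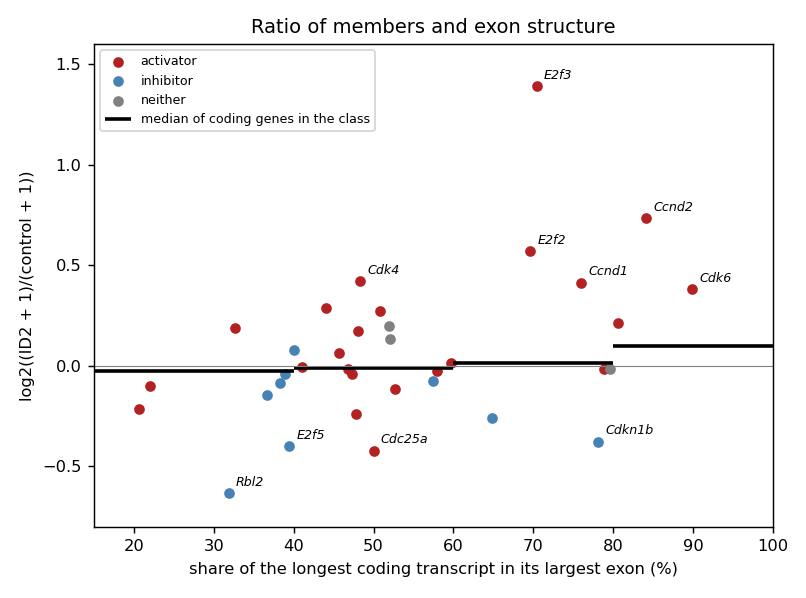
Log2 ratio of ID2 to control (vertical axis) of the 35 members above the floor against the share of the longest coding transcript in its largest exon (horizontal axis, percent), with black lines for the median of all coding genes in 4 classes of that share. Rbl2 and E2f5 stand at the left and below 0, and Ccnd2, Cdk6, E2f2 and E2f3 at the right and above 0. Others stand apart from that pattern, such as Ccne1 at the left and above 0, and Cdkn1b and Cdkn2d at the right and below 0.

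The libraries do not keep the strand, and exons of 11 members overlap those of a gene on the other strand in GENCODE M21. Tspan31 overlaps 31.2% of the Cdk4 exons and stood at 1176 and 1236 (0.07). Aktip, across from Rbl2, stood at 1222 and 1060 (−0.20), and overlaps with it and a predicted gene cover 16.8% of the Rbl2 exons. Bysl, across from Ccnd3, stood at 1559 and 1832 (0.23). E2f3 and E2f2 have no such overlap. Ccnd3, Ccnb1 and Ccnb2 each have a gene named as their pseudogene, with which reads may be shared.

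In the authors' deposited table, E2f3 had a p of 4.18e-04 and an adjusted p of 0.118. The other 35 members had an adjusted p of 1 in the authors' deposited table, and E2f3 was the 1 member with an unadjusted p under 0.05, beside 3.85% of all genes. No replicate spread stands behind these p-values.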

How the data were processed

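The submitters' processing notes name mm9, DESeq and STAR, without versions. The sources used here do not give the annotation or the counting tool. The deposited table holds, per gene, a normalized signal value in each of 2 libraries and the mean of both. It also holds the authors' ratio (fold) of ID2 to control, the log2 of that fold as deposited, and the authors' p-value with its adjusted form. Each deposited signal value was a whole multiple of 1 step per library (tolerance 0.001 steps), and the sorted whole numbers of both libraries were identical (0 ranks differed). The values thus share 1 common distribution, so depth is unknown and no counting interval was computed.

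Log2 ratios were computed from the signal values with a pseudocount of 1 and a floor of 50 (Python 3.11.15, pandas 2.3.3, numpy 2.4.6). No test was run, because each group had 1 library. Members and lists were chosen with earlier results of these data known. Named genes were all members, Id2 and, of each other list, the genes above the floor at least 1.5-fold apart. Where fewer than 2 were, the 2 largest ratios in size were named. Cdkn2b, Mnat1, Pdgfra, Pdgfrb, Loxl1, genes on the strand across from members and some genes of the MuvB list were named outside this rule. Exon lengths came from the basic GENCODE M21 set (GRCm38) by symbol, for all 36 members, and promoters from RefSeq. The calculations were tested on simulated data. Alternatives were another scaling, pseudocounts of 0.1 and 10, no floor or a floor of 250, a smaller fold and a fold of 2, the authors' log2 column, roles without E2f4, E2f5 and E2f6 or without Skp2, and, chosen after seeing the data, whole steps without size factors and another gene length.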

Additional observations from a re-analysis of the deposited data

How the results depend on the processing

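Of 500 recomputed values, 482 stayed within 0.1 on the log2 scale or, for counts, within 1.5 times, 18 moved, and of the values at least 1.5-fold apart 0 changed sign. Several alternatives could hardly move a ratio, so this is no measure of stability. With a floor of 250, Ccnd2 was left out and 1 member was at least 1.5-fold higher, beside 478 of all genes higher and 339 lower. The number of genes passing that floor was not counted, so these counts cannot be compared as shares. Without a floor, Cdkn2c was added and 2 of 36 members were at least 1.5-fold lower, beside 1286 of all 14398 genes. At a smaller fold (0.32 on the log2 scale), 6 members (17.1%) were higher and 4 (11.4%) lower, beside 2313 (18.2%) and 2085 (16.4%) of all genes. At 2-fold, 1 member was higher (2.86%) and 0 lower, beside 321 (2.53%) and 236 (1.86%) of all genes. The 5 other moved values were medians of other lists with a floor changed, and that of the differentiated lineage markers changed sign (−0.23, and 0.07 with a floor of 250). The median of the SCF and anaphase-promoting complex list also changed sign (0.01, and −0.0028 in whole steps). Of the members, the sign of Ccne2 alone depended on the scaling (0 in whole steps). No paired analysis was possible because each group had 1 library. Depth is unknown and limits most the members of low level, Ccnd2, Ccne2, Cdk6 and Cdkn2c.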

Other observations

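Cyclins and CDKs outside the core engine, from a list that shares no gene with the members, were level at the median (0.04, 15 of 26 higher). At 1.5-fold, 1 was called higher (3.85%, beside 8.0% of all genes) and 2 lower (7.69%, beside 6.59%). Ccno, a cyclin of multiciliated cells, stood at 95.5 (control) and 24.1 (ID2, 3.84-fold lower), a larger ratio in size than that of any member. Its level was low, with the ID2 value under the floor set for the mean. No neighbour range is given for Ccno. Ratios spread widely at low level, with neighbour ranges of −1.07 to 1.19 for Ccnd2 and −1.86 to 2.05 for Cdkn2c. The Ccno ratio of −1.94 lay below both of these ranges. How it compares with genes of its own level was not tested. Ccng2, a cyclin of cell cycle arrest, stood at 844 and 486 (1.73-fold lower). Cdk13, a kinase of RNA polymerase II, stood at 1037 and 1702 (1.64-fold higher).

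Ubiquitin ligase subunits of the SCF and the anaphase-promoting complex had a median of 0.01 (12 of 23 higher), and none was 1.5-fold apart. The largest ratios of that list were those of Fbxw7, the F-box protein that marks cyclin E for degradation (644 and 963, 0.58), and Cul1, the SCF scaffold (1280 and 1849, 0.53). Ccne1, whose product FBXW7 targets, stood at a ratio of 0.19.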
